A study of Mus musculus with 36 samples.

Results

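Broad open domains of the developing mouse autopod were defined as stretches of accessible chromatin covered by a single ATAC-seq peak wider than 10 kb. ATAC-seq reads out the fragments that a transposase frees from accessible DNA, so a peak marks open chromatin. Of 501752 peaks in 12 peak lists, 2827 were wider than 10 kb, and merging those that shared at least 1 bp gave 808 domains. The peaks of all widths merged into 65543 regions. Peak width therefore chose the domains, and their widths and the number of lists with a broad peak are given as descriptions, with no test.

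The lists came from 36 libraries of E15.5 chondrocytes of the hand and foot, the skeletal elements having been microdissected from embryos of FVB/NJ dams. Each library pooled tissue of 3 to 5 littermates, right and left sides together. There were 3 libraries in each of 12 groups. The hindlimb groups were foot phalanges and metatarsals, the forelimb groups were hand phalanges and metacarpals, and each was taken from digits I, III and V. Digit I phalanges held proximal and distal elements, whereas those of digits III and V also held the intermediate one. The labels give no treatment and no other allele. The libraries of a group had been pooled before peaks were called, so a list is a single measurement, and errors below are the spread between lists.

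Chromatin is open at active promoters and enhancers, and most accessible sites are short. Long stretches of open or actively marked chromatin have been described at genes that set cell identity and at genes transcribed at high levels. In the limb, transcription factors of the T-box, Hox, LIM and Msx families pattern the forelimb and hindlimb, the proximal and distal elements and the anterior and posterior digits. Sox9, with Sox5 and Sox6, drives cartilage genes such as Col2a1, which encodes the main collagen of cartilage.

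The promoters of 5 genes of this kind are shown because their start sites lay inside domains described below: Tbx4 (the hindlimb T-box factor), Hoxd13 (a distal digit Hox gene), Lmx1b (the dorsal limb LIM factor), Msx1 (a distal homeobox factor) and Runx3 (a Runt factor of cartilage maturation). Each sequence is the 250 bases before the start site, from RefSeq on GRCm38.p6, read 5′ to 3′ on the strand of the gene. They lie at chr11:85896515-85896764 on the plus strand for Tbx4, chr2:74667975-74668224 on the plus strand for Hoxd13, chr2:33641099-33641348 on the minus strand for Lmx1b, chr5:37824586-37824835 on the minus strand for Msx1 and chr4:135152295-135152544 on the plus strand for Runx3. Capitals mark matches to the TATA motif TATAAA, the CAAT box CCAAT and the GC box GGGCGG, searched on both strands.
Tbx4: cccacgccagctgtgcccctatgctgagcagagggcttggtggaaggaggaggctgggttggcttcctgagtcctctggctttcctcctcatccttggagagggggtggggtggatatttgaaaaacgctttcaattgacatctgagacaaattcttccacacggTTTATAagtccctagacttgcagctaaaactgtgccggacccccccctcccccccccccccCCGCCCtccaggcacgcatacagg
Hoxd13: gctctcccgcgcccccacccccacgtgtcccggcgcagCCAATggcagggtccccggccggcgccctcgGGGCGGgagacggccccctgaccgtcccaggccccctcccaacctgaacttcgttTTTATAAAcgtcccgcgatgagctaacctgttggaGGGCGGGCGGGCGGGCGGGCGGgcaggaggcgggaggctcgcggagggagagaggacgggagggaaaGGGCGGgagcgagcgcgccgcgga
Lmx1b: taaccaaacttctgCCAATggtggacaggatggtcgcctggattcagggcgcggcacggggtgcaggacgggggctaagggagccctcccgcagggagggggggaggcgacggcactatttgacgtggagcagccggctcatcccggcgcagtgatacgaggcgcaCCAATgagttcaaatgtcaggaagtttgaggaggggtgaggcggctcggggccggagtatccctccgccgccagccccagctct
Msx1: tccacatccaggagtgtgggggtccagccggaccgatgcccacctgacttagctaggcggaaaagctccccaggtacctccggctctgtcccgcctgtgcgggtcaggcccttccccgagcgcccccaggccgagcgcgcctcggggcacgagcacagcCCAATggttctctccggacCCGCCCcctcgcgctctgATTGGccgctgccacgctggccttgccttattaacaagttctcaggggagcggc
Runx3: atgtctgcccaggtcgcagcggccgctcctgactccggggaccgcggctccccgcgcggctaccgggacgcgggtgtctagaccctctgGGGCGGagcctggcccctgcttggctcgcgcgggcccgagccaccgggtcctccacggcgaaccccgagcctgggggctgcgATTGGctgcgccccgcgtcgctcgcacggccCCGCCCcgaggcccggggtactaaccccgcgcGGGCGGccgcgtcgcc

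The 250 bases before a start site held TATAAA in 6.99% of 687 promoters inside broad domains, against 5.52% of promoters inside other regions found in all 12 lists and 11.6% of all 21263 promoters in the table. CCAAT was present in 32.6%, 35.5% and 35.4% of the same 3 sets, in that order, and GGGCGG in 61.6%, 62.0% and 42.6%. The median GC share was 61.6% in domains, 61.2% in other regions of all lists and 55.6% over all promoters, and the observed over expected CpG was 0.687, 0.739 and 0.53. By these measures the promoters in broad domains had values near those of promoters in other constitutively open regions.

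Of 1005 miRNA hairpins in the RefSeq table, 55 (5.47%) lay inside broad domains, in 42 domains, and 25.8% lay inside other regions. The mature sequences below are those of the hairpins in domains that lie beside cartilage, Hox or imprinted genes, and of 2 pairs that share a seed. Capitals mark the seed, bases 2 to 8.
miR-140-3p: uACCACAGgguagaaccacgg
miR-196b-5p: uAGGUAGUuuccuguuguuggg
miR-27a-3p: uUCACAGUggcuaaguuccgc
miR-27b-3p: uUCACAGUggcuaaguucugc
miR-24-3p: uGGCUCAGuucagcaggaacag
miR-132-3p: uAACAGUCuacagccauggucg
miR-212-3p: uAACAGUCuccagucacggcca
miR-675-5p: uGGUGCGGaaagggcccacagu

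miR-140-3p came from the domain in Wwp2, whose intron holds the cartilage miRNA gene Mir140, and miR-196b-5p from the HoxA domain. The 27a and 27b miRNAs share the seed UCACAGU and sit in separate domains, in Zswim4 on chromosome 8 and in Aopep on chromosome 13, each beside a copy of miR-24. The miRNAs 132 and 212 share the seed AACAGUC and lie together in the domain over Hic1 on chromosome 11. miR-675-5p is processed from H19, an imprinted noncoding RNA.

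The 12 lists held between 36194 and 53276 peaks with median widths of 1739 to 2223 bp, and covered 78.11 to 119.3 Mb in all. Read depth per library was unknown, so no interval or detection limit could be given. The lowest −log10 p-value kept in a list ranged from 23.0 to 49.6, so the lists were cut at unequal significance. Among chondrocyte markers, 6 of 7 had a peak over the gene in all 12 lists and Matn1 had one in 9 lists, and Col2a1, Sox9 and Hapln1 overlapped a broad domain. No list had a peak over Tnmd (tendon), Gata1 (blood), Krt5 or Krt14 (epidermis) or Bglap (osteoblast), whereas Scx and Mkx of tendon, Pecam1 and Kdr of endothelium, Ptprc and Spi1 of blood and Sp7 of osteoblasts had a peak in all 12. Myod1, Myog and Myf5 of muscle had a peak in 8, 3 and 10 lists. In bulk tissue, fewer cells of a type and less open chromatin per cell cannot be told apart.

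The number of peaks wider than 10 kb varied severalfold between lists. In foot phalanges there were 124 in digit I, 300 in digit III and 435 in digit V, and in hand phalanges 309, 176 and 239. Metatarsals had 368, 207 and 151, and metacarpals 193, 204 and 121. No order of digits held in all 4 elements. Foot phalanges of digit V had the most broad peaks, which were 1.09% of that list, and metacarpals of digit V had the fewest, 0.316%. The digit V list of foot phalanges also contributed 107 domains that were broad in no other list, the digit I list of metatarsals 59 and the digit I list of hand phalanges 51. Broad peaks took 2.34% to 5.92% of the bases that a list covered.

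A broad state was shared by few lists, although most lists had some peak in the same stretch. Of the 808 domains, 347 (42.9%) were broad in 1 list and 124 (15.3%) in 2 lists, 163 (20.2%) were broad in 6 or more, and 31 (3.84%) were broad in all 12. By contrast, 731 domains (90.5%) had some peak in every list, as did 22624 of the 64743 regions that overlap no domain. The domains are wide by rule and any covered base counts, so their span favours the higher share. Among the 7016 pairs of a domain and a list without a broad peak, 277 (3.95%) had no peak at all, 2589 (36.9%) had 1 narrower peak and 4150 (59.2%) had 2 or more separate peaks. The median share of the domain under peaks was 65.3% in those pairs and 93.5% in the pairs with a broad peak. A list without the broad peak thus usually had the same stretch open as several pieces, and the widest piece had a median width of 6071 bp.

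**Figure D1:**
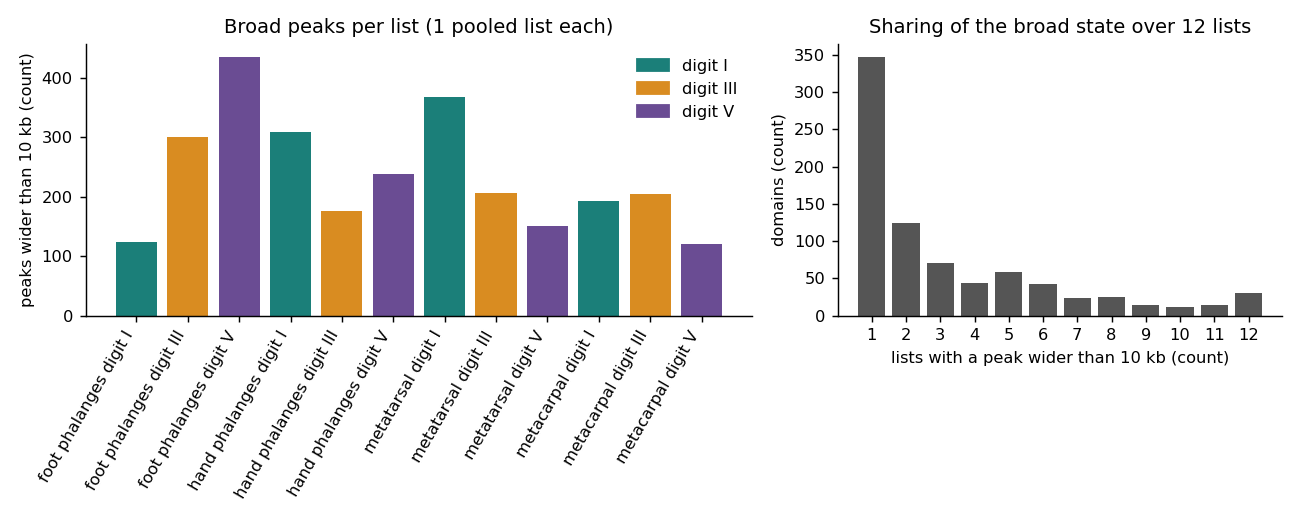
Left, the number of peaks wider than 10 kb (count) in each of the 12 pooled lists, coloured by digit; bars start at 0 and have no error because each list is 1 measurement. Right, the number of domains by how many lists had a broad peak there: 347 domains were broad in 1 list and 31 in all 12.

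The threshold of 10 kb cut through a continuous range of widths. Just above it were peaks of 10001 bp over Klf2 in metacarpals of digit III, 10001 bp over Slc7a5 in foot phalanges of digit V and 10002 bp over Dot1l, Plekhj1 and Sf3a2 in metatarsals of digit V. Just below it were a peak of 10000 bp over no gene on chromosome 4 in foot phalanges of digit V, a peak of 9999 bp over Fgf18 in hand phalanges of digit I and a peak of 9999 bp over Ache, Ufsp1 and Srrt in metatarsals of digit I. The domains spanned 10001 to 104623 bp with a median of 12604 bp, and 12.2 Mb in all.

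Most broad domains overlapped genes. Of the 808, 717 (88.7%) overlapped a protein-coding gene, 236 (29.2%) overlapped 2 or more, and 166 (20.5%) lay inside a single gene body. An end of a gene lay inside 559 domains (69.2%), against 50.6% of the 22624 other regions found in all lists. These regions are shorter, with a median of 3602 bp. Windows of the median domain span centred on those regions held a transcription start site in 47.3% of cases, against 44.5% of the regions themselves and 54.9% of 790 domains on the chromosomes for which start sites were at hand. The domains held 324 whole protein-coding genes and overlapped 1027 of 21900 (4.69%).

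At start sites the broad peaks reached further into the gene than ahead of it. In 288 domains with 1 start site under their widest peak, that peak extended a median of 3659.5 bp upstream and 8850 bp downstream, and the downstream side was the longer one in 223 (77.4%). Peaks of up to 10 kb over a single start site had medians of 985 bp upstream and 1395 bp downstream, and 73.3% of 102248 were longer downstream. The summit of the broad peak lay within 500 bp of the start site in 181 domains (62.8%), against 91.3% of the narrower peaks. The direction was therefore shared with ordinary promoter peaks, and the summit was more often away from the start site in broad peaks. These are descriptions, since the widest peak was chosen by its width.

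**Figure D2:**
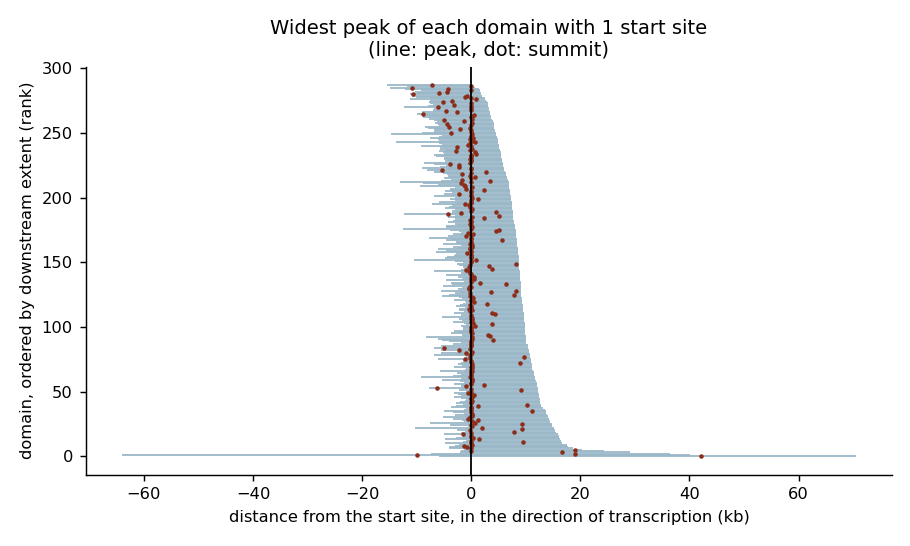
Extent of the widest peak (line) and position of its summit (dot) around the start site, in kb along the direction of transcription, for the 288 domains with a single start site under that peak, ordered by downstream extent. Lines reach further to the right than to the left in 223 of the 288, and 181 summits lie within 500 bp of the start site.

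Several genes carried more than 1 broad domain. There were 64 such genes. Gse1, a gene of a chromatin corepressor complex, had 9 domains. Nfix, a nuclear factor I transcription factor, had 4, as did the provisional gene Gm7592. Col27a1, a cartilage collagen, Nfatc1 and Nfatc2, calcium-regulated transcription factors, Plxnd1, a semaphorin receptor, and Zmiz1, a transcriptional coactivator, had 3 each.

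The gene lists differed in how many members a broad domain overlapped. Against 4.69% of all protein-coding genes, a broad domain overlapped 8 of 15 chondrocyte transcription factors (53.3%), 8 of 16 Hox genes, 16 of 34 limb patterning transcription factors (47.1%), 11 of 22 immediate early genes and 9 of 16 ubiquitous genes (56.2%). Among 28 genes of growth plate signalling, 6 were overlapped (21.4%): Pth1r, the parathyroid hormone-related peptide receptor, Ptch1, the hedgehog receptor, Bmp7, Fgfr2, Igf1r and Wnt5a. Only Col2a1 and Hapln1, the hyaluronan link protein, were overlapped among 15 cartilage matrix genes (13.3%). Joint genes contributed Osr1 and Osr2 of 14, and perichondrium and osteoblast genes contributed Foxc1 of 15. Of the markers of other cells, 0 of 10 for muscle and 0 of 10 for endothelium were overlapped, 1 of 9 for blood (Cd68), 1 of 8 for epidermis (Tfap2a), 1 of 7 for nerve (Ngfr) and 2 of 7 for tendon (Scx and Egr1, the second of which is also an immediate early gene). Hox genes lie in clusters and share domains, so the 8 Hox genes fell in 3 domains.

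Col2a1 lay in a domain at chr15:97972726-98006243, which was broad in 9 lists. Peaks covered 16688, 22476 and 24523 bp of it in foot phalanges of digits I, III and V, 25605, 27775 and 14164 bp in metatarsals, 24476, 32120 and 31009 bp in hand phalanges and 23408, 32938 and 32648 bp in metacarpals. The 6 hindlimb lists averaged 21871.8 ± 5337.8 bp and the 6 forelimb lists 29433.2 ± 4317.3 bp (SD), which overlapped and did not pass the exact permutation test (p = 0.0625). The other contrasts of this domain gave exact permutation p-values of 0.148 to 0.975.

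The Hox genes of the distal limb lay in 3 large domains. The HoxA domain at chr6:52211044-52254803, over Hoxa9, Hoxa10 and Hoxa11 with their neighbours, was broad in 10 lists and had 36742 to 42547 bp under peaks in hindlimb lists, against 33018 to 42082 bp in forelimb lists (exact permutation p = 0.0938). On chromosome 2, the domain over Hoxd13 and Hoxd12, genes of the digit end of the cluster, at chr2:74653956-74678216 had 20298 to 23207 bp in hindlimb lists, against 18854 to 22394 bp in forelimb lists (exact p = 0.281). Next to it lay the domain over Hoxd11, Hoxd10 and Hoxd9, described below for digit III. Both of the first domains varied little, with lowest and highest lists that overlapped between limbs.

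The miR-140 domain in Wwp2, at chr8:107543443-107559001, was broad in 6 lists. Covered bases were 5554, 6766 and 15308 bp in foot phalanges of digits I, III and V and 7192, 6395 and 7178 bp in hand phalanges, against 15266, 10479 and 11017 bp in metatarsals and 15306, 15083 and 4847 bp in metacarpals. Of the 6 broad lists, 5 were metapodial lists, but the foot phalanges of digit V were as high and the metacarpals of digit V were the lowest of all. The difference of -3934.2 bp between phalanges and metapodials did not pass (exact permutation p = 0.188).

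Of the 31 domains broad in every list, 13 overlapped a gene with an established symbol, 8 overlapped only genes with provisional symbols, and 10 overlapped no protein-coding gene. Thus 1.87% of the 697 domains at established genes were broad in all lists, against 40.0% of 20 domains at provisional genes and 11.0% of 91 domains without a gene. Examples with established symbols were Prdm16 and Zbtb7a, zinc finger factors, Cyp26b1, which clears retinoic acid in the limb bud, Ptbp1, a splicing regulator, Tnrc18, and the noncoding RNA Neat1 beside Frmd8. The widest peak was 11925 to 18221 bp over Tnrc18 and 12428 to 16161 bp over Cyp26b1.

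Some of the widest had peaks of nearly the same width in every list, and others did not. The domain over Gas8 had a widest peak of 87110 to 88481 bp, that over Sfi1 of 80820 to 82078 bp and that over Mid1 of 50914 to 52022 bp. On chromosome 9, a domain of 38676 bp with no protein-coding gene had peaks of 38320 to 38674 bp, and a median fold enrichment, the authors' own value per peak, of 7810, against a median of 15.1 over domains without a gene and 31.5 over domains at established genes. A cluster of provisional genes on chromosome 1 held the widest peak, 104045 bp in metacarpals of digit V, where the narrowest list had 22007 bp. Flg and Flg2, epidermal barrier genes, were also broad in all 12 lists, with a median widest peak of 12866 and 15971 bp. Of other epidermal genes, Krt5 and Krt14 had no peak in any list and Trp63 had one in 6. Tfap2a, also an epidermal marker, lay in a domain with a peak in all 12 lists, broad only in foot phalanges of digit V. The handling of reads that map to more than 1 place was not stated, and its part in the width of the domains was not tested.

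The contrasts of limb, element and digit asked which domains differed between groups in the number of their bases under peaks. All 808 domains and the 64743 regions that overlap none of them were tested together, with list labels swapped within strata of the other 2 factors. The rule takes a broad peak from any list, so swapping labels leaves the members unchanged. A member must still be wide somewhere and differ from the other regions in size, so its share of calls is set beside the share over all 65551 without a test. Where a domain was broad only in the group with higher values, the width rule and the comparison drew on the same peaks. With 12 lists the smallest two-sided p was 0.0312 in the limb and element contrasts and 0.0123 in each digit contrast, and no domain or region passed Benjamini-Hochberg adjustment in any contrast. A call below means an unadjusted exact permutation p of at most 0.05. Leaving out a list also leaves fewer labellings, so the p-values of such runs move in coarse steps. In these runs named domains kept the span set by all 12 lists, so reliance on the list that made a domain was not tested. Counts of calls in such runs have no share over all features beside them. Of the called differences of named domains, 31 kept their call and 46 lost it in the more significant 50% of each list. The labels do not say whether the 3 libraries of a group differed in litter from those of other groups.

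Between hindlimb and forelimb, the domains of the T-box genes Tbx4 and Tbx5 stood apart. Tbx4 is the hindlimb member of this pair of limb bud factors and Tbx5 the forelimb member. The Tbx4 domain at chr11:85885443-85898602, which holds the promoter printed above, had 10264, 11897.5 and 13078 bp under peaks in hindlimb lists (lowest, median, highest), against 0, 3834.5 and 5280 bp in forelimb lists. The groups did not overlap, and the metacarpal list of digit V had no peak there. The means were 11805.7 ± 1087.8 bp in hindlimb and 3338.8 ± 1799.1 bp in forelimb lists (SD, n = 6 each), a difference of 8466.8 bp (exact permutation p = 0.0312), and the call held whichever single list was left out. It ended in the more significant 50% of each list, where the difference was 8279.2 bp (exact p = 0.125), and with each domain only broad or not (p = 0.25). The Tbx4 domain was broad in 3 lists, all of them hindlimb, so it met the width rule only through the limb where it was high.

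Tbx5 showed the opposite. A domain inside the gene at chr5:119827745-119846193 had 0, 2448 and 5180 bp in hindlimb lists, against 6247, 13602.5 and 18109 bp in forelimb lists. Again the groups did not overlap, and within the forelimb the digit I lists were highest, at 18109 bp in hand phalanges and 17990 bp in metacarpals. The difference was -11349.7 bp (exact permutation p = 0.0312), and without the metatarsal list of digit V it was -10884 bp (p = 0.0625 in the same test). In the more significant 50% of each list it was -4006.2 bp (exact p = 0.5). A second Tbx5 domain had 0, 930 and 3181 bp in hindlimb lists, against 3602, 4467.5 and 11529 bp in forelimb lists, a difference of -5105.7 bp (exact permutation p = 0.0312, 0.0625 without the list of digit III foot phalanges, and 0.25 in the more significant 50% of each list). This second domain was broad only in digit I metacarpals, whose peak of 11529 bp set its span. The first was broad in 3 lists, none of them hindlimb. Both thus met the width rule only through the limb where they were high.

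**Figure D3:**
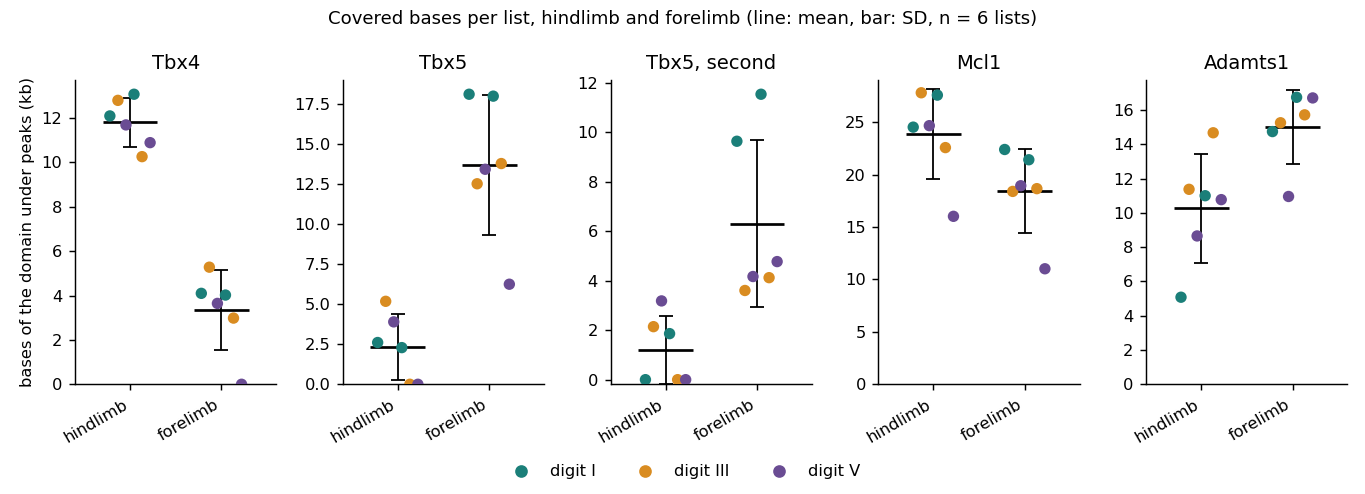
Bases of 5 domains under peaks (kb) in each of 12 lists, hindlimb left and forelimb right, coloured by digit, with the mean (line) and SD (bar) of 6 lists. Hindlimb and forelimb lists do not overlap in the Tbx4 and both Tbx5 domains, and overlap in the Mcl1 and Adamts1 domains.

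In this contrast 28 domains (3.47%) were called higher in hindlimb and 9 (1.11%) lower, against 2.11% and 0.555% of all features, and 3.51% and 0.751% of the other regions found in all lists. The smallest adjusted p was 0.952. The domains and the other regions open in all lists thus had close shares. When each list was scaled to the bases it covers, 13 domains were higher and 20 lower, against 1.11% and 1.37% of all features, so the split between directions depended on the scale. After Tbx4, the largest differences were at 1 of the 9 Gse1 domains with 6482.2 bp, the domain over Mcl1, an antiapoptotic gene, and Adamtsl4 with 5394.7 bp, and that over Gsk3a and Erf, an ETS repressor, with 4185.8 bp (exact permutation p = 0.0312 each). Some but not all of the other Gse1 domains were called higher too. Lower in hindlimb were Adamts1, an aggrecan-cleaving protease, by -4762.3 bp and the domain over Capn12 and Actn4 by -4126.3 bp (exact p = 0.0312 each). Each of these calls ended without some lists: without foot phalanges of digit I or V or metacarpals of digit III or V for Gse1 (exact p = 0.0625), where the more significant 50% gave 3085.2 bp (p = 0.281), without digit I of either hindlimb element or digit V metacarpals for Mcl1 (p of 0.0625 to 0.188), and without digit V foot phalanges or digit I hand phalanges for Erf (p = 0.0625). The same held without digit V foot phalanges or digit III metacarpals for Adamts1 (exact p = 0.0938), and without digit V hand phalanges, digit III or V metatarsals or digit I metacarpals for Actn4 (p of 0.0625 to 0.156).

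Of the lists of genes, 1 of 8 overlapped chondrocyte factors was called in this contrast, Sox9, with 7857, 10852 and 12139 bp in hindlimb lists, against 6386, 8411 and 10138 bp in forelimb lists. The groups overlapped, the difference was 2491.2 bp (exact permutation p = 0.0312), and on the scale of bases covered it did not pass (p = 0.0625). In the more significant 50% of each list it was 1547.2 bp (exact p = 0.375). Without digit I foot phalanges or digit V metacarpals it was not called (exact p = 0.0625 and 0.0938). Of 16 overlapped limb patterning factors, Tbx4 was called higher and Tbx5 lower, and the other 14, among them Hand2, Gli3, Prrx1 and En1, were not called. Six2, a homeobox gene of tendon and connective tissue chosen here after its values were seen, had 13515, 13889.5 and 15076 bp in hindlimb lists, against 9246, 11023.5 and 13548 bp in forelimb lists (difference 2728.5 bp, exact permutation p = 0.0312). Its call also ended on the scale of bases covered (exact p = 0.125) and without digit I foot phalanges or metatarsals (p = 0.0625 and 0.0938). Leaving out the list of digit V foot phalanges or of digit V metacarpals left 13 and 9 domains called higher, leaving out digit I hand phalanges gave 58, and the count called lower was 4 without digit V metatarsals and 22 without digit I metacarpals.

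Between phalanges and metapodials, more domains were called and nearly all in 1 direction. There were 61 domains (7.55%) higher in phalanges and 8 (0.99%) lower, against 2.11% and 2.44% of all features and 3.27% and 2.98% of the other regions in all lists. Of the 61, 28 were broad in 1 list only, as were 347 of all 808 domains. On the scale of bases covered the counts were 78 and 16, against 2.2% and 2.64% of all features. The smallest adjusted p was 0.637. The median difference over the 808 domains was 727.7 bp, against -41.5 bp over all features. The phalanx lists also had more broad peaks, with a median of 269.5 in phalanges and 198.5 in metapodials, and the part of this in the calls was not tested.

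Foxp4, a forkhead repressor, and Nfix were among the domains whose groups did not overlap. The Foxp4 domain at chr17:47858146-47883351 had 12702, 13765.5 and 24652 bp in phalanges, against 3847, 10261 and 11994 bp in metapodials. The groups did not overlap and the digit V phalanges of foot and hand were far above the rest, at 24652 and 21979 bp. The difference was 7084.8 bp (exact permutation p = 0.0312), with p = 0.0625 without the list of digit III metatarsals, digit I metacarpals or digit III metacarpals, p = 0.0625 on the scale of bases covered and p = 0.125 at equal list lengths.

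One of the 4 Nfix domains, at chr8:84720753-84734545, had 5465, 9320.5 and 13317 bp in phalanges, against 2754, 3001.5 and 3233 bp in metapodials. It was broad only in phalanx lists, and the other Nfix domains were not called in this contrast. In the called domain all 6 metapodial lists lay within a narrow range below every phalanx list. The difference of this domain was 6069.2 bp (exact permutation p = 0.0312, and 0.0625 without the list of digit I or digit III metatarsals). The largest difference of this contrast, 10001.5 bp, was at Morn1, with 23836, 29528 and 32768 bp in phalanges, against 13542, 18987 and 22767 bp in metapodials (exact p = 0.0312, and 0.0625 without digit I metatarsals). By the widest peak alone it was 6439.2 bp (exact p = 0.0625).

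Runx3, Axin2, Lhx2 and Msx1 were picked from the called domains after their values were seen. The Runx3 domain that holds the promoter printed above, at chr4:135148373-135160388, had 9379, 10399 and 12016 bp in phalanges, against 4707, 5205.5 and 10542 bp in metapodials. Of the metapodial lists, 1 reached the phalanges, the metatarsals of digit I. A second Runx3 domain was not called in this contrast. The difference of the first was 4452.8 bp (exact permutation p = 0.0312, and 0.0625 without digit I foot phalanges). The domain of Axin2, a feedback inhibitor of WNT signalling, differed by 4758 bp and that of Lhx2, a LIM factor of the distal limb, by 2058.7 bp (exact permutation p = 0.0312 each). For Lhx2 the call ended on the scale of bases covered and without digit I hand phalanges or digit V metacarpals (exact p = 0.0625 each), and for Axin2 without digit III metacarpals (p = 0.0625). The Axin2 domain had at most 7569 bp under peaks in metapodial lists. It thus met the width rule only through the phalanges, where it was high.

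Msx1 had 12713, 13711 and 15954 bp in phalanges, against 7458, 12790 and 13714 bp in metapodials (difference 2001.3 bp, exact permutation p = 0.0312). The groups overlapped, the low end was 1 list, the metacarpals of digit V, without which the difference was 1106.4 bp (exact p = 0.125), and the call ended on the scale of bases covered (p = 0.156). Of 16 overlapped limb patterning factors, Lhx2 and Msx1 were called and 14 were not. Of 8 chondrocyte factors 1, Runx3, was called.

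**Figure D4:**
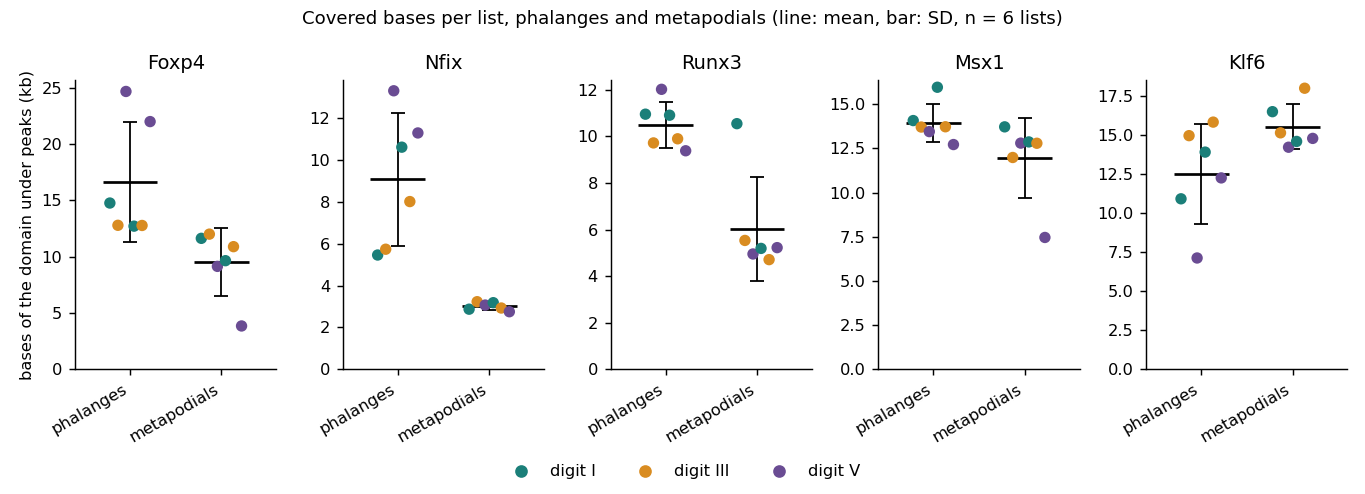
Bases of 5 domains under peaks (kb) in each of 12 lists, phalanges left and metapodials right, coloured by digit, with the mean (line) and SD (bar) of 6 lists. Phalanx lists lie above every metapodial list for Foxp4 and Nfix, 1 metatarsal list reaches the phalanges for Runx3, and Klf6 is lower in phalanges.

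The 8 domains lower in phalanges included Klf6, an immediate early zinc finger gene, with 7132, 13088.5 and 15836 bp in phalanges, against 14227, 14971.5 and 18007 bp in metapodials. The difference of -3040.5 bp (exact permutation p = 0.0312) was -1965.7 bp without digit V foot phalanges (p = 0.0938 in the same test), and the call also ended without digit III metatarsals (p = 0.0938) or digit III metacarpals (p = 0.156). Other domains of this direction were Adamts1, at -3258.7 bp, Snx18, at -4181.2 bp, and the zinc finger genes Zfp978 and Zfp988, at -4226.7 bp (exact p = 0.0312 each). The Adamts1 call ended without foot phalanges of digit I, where the difference was -2072.2 bp (exact p = 0.156), or of digit V, or metacarpals of digit I or III (p = 0.125 each), the Snx18 call on leaving out any 1 of 4 lists (p of 0.188 to 0.281) and the Zfp978 call on leaving out any 1 of 6 (p of 0.0938 to 0.219). The count of domains called higher was 33 without digit V foot phalanges and 105 without digit I metatarsals. The count called lower was 4 without foot phalanges of digit I or V or metacarpals of digit III, 13 without digit III foot phalanges or digit V metatarsals and 26 without digit I metacarpals.

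Digit I was compared with digits III and V, 4 lists against 8. Here 29 domains (3.59%) were higher in digit I and 26 (3.22%) lower, against 2.7% and 1.13% of all features and 5.44% and 1.15% of the other regions in all lists. The smallest adjusted p was 0.994. Of the 29 higher, 27 overlapped a gene with an established symbol, as did 8 of the 26 lower and 697 of all 808 domains. No gene was overlapped by 12 of the 26 lower, against 91 of the 808. The lower set thus departed from the domains as a whole, and the higher set was near them. On the scale of bases covered 27 were higher and 21 lower, against 2.42% and 1.42% of all features. With lists of equal length 35 of 804 were higher and 18 lower, against 3.65% and 1.15%. The lowest −log10 p-value kept had a median of 45.0 in digit I lists and 33.55 in the others, and its part in these calls was not tested.

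Lmx1b had the largest difference among domains higher in digit I. Its domain at chr2:33624815-33647462 had 16228, 17890, 18806 and 21021 bp in digit I, against 7908, 13744 and 17732 bp in digits III and V (lowest, median, highest). The groups overlapped, since the digit V lists of both hindlimb elements reached 17675 and 17732 bp, but digit I was the highest of its element in all 4. The difference was 4711.2 bp (exact permutation p = 0.0123), with p = 0.0741 without digit I foot phalanges or digit V metacarpals and 0.0617 on the scale of bases covered. Digit I was broad in 4 of 4 lists and the others in 2 of 8. A second Lmx1b domain was not called in any digit contrast.

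Boc, a hedgehog co-receptor, Disp1, which releases hedgehog ligands, and Lhx9, a LIM factor of the limb bud, were also called. Boc had 9404, 12565, 13670 and 15097 bp in digit I, against 5420, 8015.5 and 12945 bp in digits III and V, a difference of 4453.2 bp (exact permutation p = 0.0494). Lhx9 differed by 3373.1 bp (exact permutation p = 0.0494) and Disp1 by 3558.5 bp (exact permutation p = 0.037). The Disp1 domain was broad only in digit I metatarsals, whose peak of 11439 bp set its span. All 3 overlapped between groups, and the call ended on leaving out any 1 of 10 lists for Boc (exact p of 0.0741 to 0.111), any of 9 for Disp1 (0.0556 to 0.111) and any of 12 for Lhx9 (0.0556 to 0.148). Cdk9, the kinase of transcription elongation, had 6767, 8390, 8466 and 10567 bp in digit I, against 3157, 4181 and 7469 bp elsewhere (difference 3997.1 bp, exact permutation p = 0.0123). Its call held whichever single list was left out, with its span unchanged. That span was the peak of digit I hand phalanges, the only broad list, so reliance on that list was not tested.

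**Figure D5:**
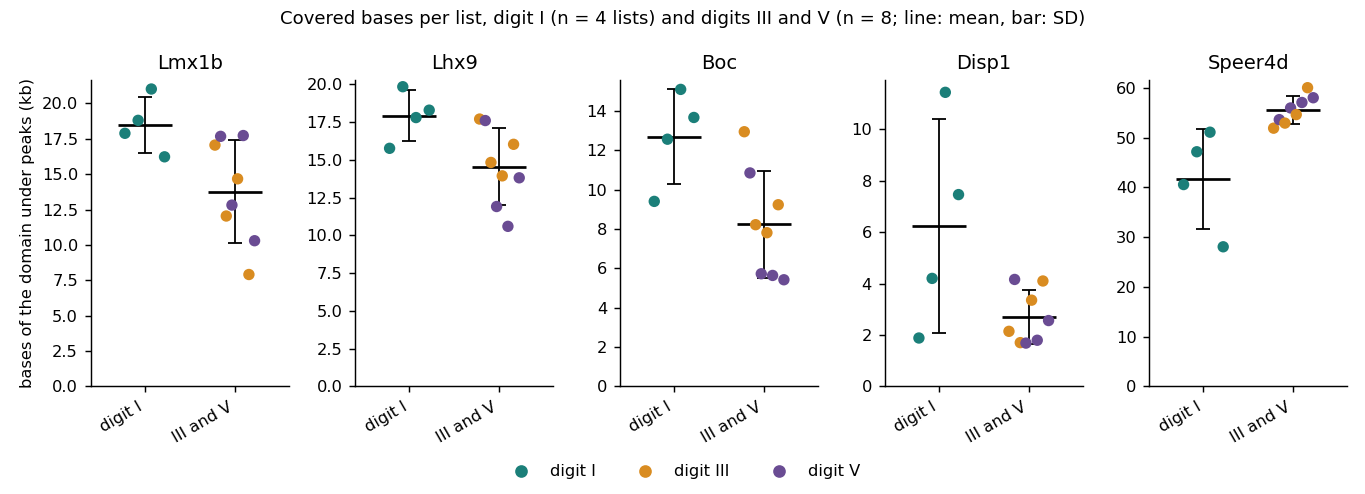
Bases of 5 domains under peaks (kb) in each of 12 lists, digit I (4 lists) left and digits III and V (8 lists) right, with the mean (line) and SD (bar). Digit I lists overlap the others for Lmx1b, Lhx9, Boc and Disp1 and lie below all others for Speer4d.

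The domains lower in digit I were led by stretches of gene families with near-identical copies. The domain over Speer4d and Gm21083 on chromosome 5 had 28053, 40558, 47149 and 51082 bp in digit I, against 51887, 55284 and 60024 bp in digits III and V, with no overlap (difference -13795.6 bp, exact permutation p = 0.0123). The call ended in the more significant 50% of each list (-17112 bp, exact p = 0.259) and by the widest peak alone (-12520 bp, p = 0.0988). A neighbouring domain of provisional genes differed by -10399.8 bp (exact permutation p = 0.037), and 2 domains of chromosome 8 by -8364.9 and -7971.8 bp (p = 0.0123 each in the same test). The neighbouring domain lost its call on leaving out any 1 of 9 lists (exact p of 0.0556 to 0.111) and the last of these without digit I foot phalanges (p = 0.0741). The last, over Gm21119, had at most 6037 bp under peaks in digit I. It thus met the width rule only through digits III and V, where it was higher. By the widest peak alone the neighbouring difference was -3705.4 bp (exact p = 0.469), and in the more significant 50% of each list the last was -2005.5 bp (p = 1.0). Reads from near-identical copies can be placed at any of them, so the position of these values is uncertain. Among gene lists, 2 of 16 limb patterning factors (Lhx9 and Lmx1b) and 1 of 8 chondrocyte factors (Sox6, by 800.9 bp, exact permutation p = 0.0123, and 0.531 on the scale of bases covered) were called higher, as were Ngfr of nerve by 2871.6 bp (p = 0.0494 in the same test) and, by 2432 bp (p = 0.037), a domain that Cd68 of blood shares with Mpdu1, Eif4a1 and Senp3, and none lower. The Ngfr call ended on leaving out any 1 of 7 lists and on the scale of bases covered (exact p = 0.0864), and the Cd68 call on leaving out any 1 of 10 lists and on that scale (p = 0.173). The Cd68 domain was broad only in digit I hand phalanges, so it met the width rule only through the digit where it was high. The count called higher fell between 8 and 45 when 1 list was left out, with 8 without digit I hand phalanges, 10 without digit I metatarsals, 12 without digit V metacarpals, 14 without digit III metatarsals or metacarpals, 15 without digit V metatarsals, 17 and 18 without digit V and III hand phalanges and 45 without digit V foot phalanges. The count called lower was 13 without digit I metacarpals and 15 without digit I foot phalanges or digit V metacarpals.

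Against digits I and V, digit III had 30 domains (3.71%) higher and 15 (1.86%) lower, where 6.89% and 0.391% of all features and 5.04% and 0.906% of the other regions in all lists were called. The smallest adjusted p was 0.59. Digit III lists held 44289 to 53276 peaks, against 36194 to 46582 in digits I and V, and covered 97.42 to 115.7 Mb, against 78.11 to 119.3 Mb. On the scale of bases covered only 7 domains were higher and 94 lower, against 3.6% and 3.92% of all features, so the direction of this contrast turned with the scale. With all lists cut to equal length, 23 of 804 domains were higher and 26 lower, against 4.47% and 0.854% of all features.

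Zyx, a focal adhesion protein gene beside Epha1, kept its call under every alternative run for it. Its domain had 10251, 11932, 17268 and 18029 bp in digit III, against 6564, 8291.5 and 10654 bp in digits I and V. The groups overlapped by 1 list, the metatarsals of digit I, while digit III was the highest digit in all 4 elements (difference 6053 bp, exact permutation p = 0.0123). The domain over Hoxd11, Hoxd10 and Hoxd9 at chr2:74678588-74701132 had 18519, 18857, 22007 and 22220 bp in digit III, against 15134, 17747 and 18479 bp in digits I and V, with no overlap (difference 2884.2 bp, exact permutation p = 0.0123). On the scale of bases covered this difference did not pass (exact p = 0.951).

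Hapln1 (2120.1 bp), Tbx15, a limb T-box factor (2795.6 bp), Snx18 (6886.5 bp) and Spry2, an FGF feedback inhibitor (7043.1 bp), were higher in digit III as well, with exact permutation p-values of 0.0247, 0.0494, 0.0247 and 0.0247. The Hapln1 domain was broad only in digit III metacarpals. On the scale of bases covered Hapln1, Tbx15 and Spry2 did not pass (exact p = 0.198, 0.173 and 0.111). At equal list lengths Spry2 and Snx18 were no longer called (exact p = 0.346 and 0.247), and Rrbp1, with 0 bp in 8 of 12 lists and 12730 to 13521 bp in 3, differed by 0 bp. Lower in digit III were Tbx2 (-2667 bp, exact permutation p = 0.037) and Lmx1b (-3638.1 bp, p = 0.0494), the second from the same lists as its digit I contrast. Without digit III metacarpals the Hapln1 difference was 950.5 bp (exact p = 0.148), and the Tbx15, Snx18, Tbx2 and Lmx1b calls ended on leaving out any 1 of 9, 7, 7 and 7 lists, that of Spry2 without digit III foot phalanges, hand phalanges or metatarsals (p = 0.0741 each). Without 1 list the count called higher was 13 to 35 and the count called lower 4 to 33. It was 13 and 5 without digit III metacarpals, 15 and 4 without digit III metatarsals or digit V foot phalanges, 17 and 4 without digit I foot phalanges, 17 higher without digit III foot phalanges, 19 and 33 without digit V metacarpals, and 6, 7 and 8 lower without digit V hand phalanges, digit I hand phalanges and digit I metatarsals.

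Digit V had 17 domains (2.1%) higher and 40 (4.95%) lower than digits I and III, where 0.392% and 3.74% of all features and 0.712% and 5.6% of the other regions in all lists were called. The smallest adjusted p was 0.986. Digit V lists held 36700 to 39937 peaks and covered 78.11 to 104.2 Mb, and on the scale of bases covered 92 domains were higher and 7 lower, against 2.97% and 1.11% of all features. With lists of equal length 30 of 804 were higher and 33 lower, against 0.912% and 3.2%. The split between directions in this contrast therefore also depended on the scale.

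Among immediate early genes, 3 of 11 overlapped were called lower in digit V: Jun, Klf2 and Klf6. The Klf2 difference of -2880.4 bp (exact permutation p = 0.037) was -1741.4 bp without digit V foot phalanges (exact p = 0.111), and its call ended on leaving out any 1 of 8 lists and on the scale of bases covered (p = 0.272). The Klf6 difference of -2884.4 bp (exact permutation p = 0.0494) was -1227.2 bp without that list (exact p = 0.37), and its call ended on leaving out any 1 of 9 lists and on the scale of bases covered (p = 0.802). The Jun domain had 6828, 7156, 8703 and 9844 bp in digit V, against 9567, 10402.5 and 10999 bp in digits I and III. The metatarsal list of digit V lay among the others and the rest lay below all of them (difference -2251.1 bp, exact permutation p = 0.0123). As a share of the bases covered the difference did not pass (exact p = 0.556). The highest digit V list had 9844 bp under peaks in the Jun domain and 8625 bp in the Klf2 domain. Neither domain was thus broad in digit V, and both met the width rule only through digits I and III, where they were higher. Pax9 and Msx1, 2 of 16 patterning factors, differed by -1885.2 and -1996 bp (exact permutation p = 0.0123 and 0.0494), and Sox9 by -2174.8 bp (p = 0.0247 in the same test). On the scale of bases covered none of these 3 passed (exact p = 0.63, 0.728 and 0.185). Without digit V metacarpals the Pax9 difference was -867.4 bp (exact p = 0.037) and the Msx1 difference -614.5 bp (p = 0.444), and the Msx1 call ended on leaving out any 1 of 10 lists and that of Sox9 on leaving out any 1 of 6. The H19 domain, with 9479 to 10042 bp in digit V and 10393 to 10852 bp elsewhere, differed by -833.8 bp without overlap (exact permutation p = 0.0123), and the sign turned on the other scale.

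Emp1, a membrane protein gene, had the most negative difference, with 4696, 11325, 16832 and 19540 bp in digit V, against 3881, 25252.5 and 31421 bp in digits I and III (difference -9622 bp, exact permutation p = 0.037). The digit I list of foot phalanges was lower than all digit V lists, and the call ended on leaving out any 1 of 10 lists (exact p of 0.0741 to 0.259). The domain over Mroh2a and Hjurp, a centromere histone chaperone, had peaks in 4 lists only, at 17395, 20087 and 8968 bp in digit V of foot phalanges, hand phalanges and metacarpals and 17533 bp in digit III hand phalanges, and was at 0 bp elsewhere (difference 9420.9 bp, exact permutation p = 0.037). This call ended on leaving out any 1 of 11 lists (exact p of 0.0556 to 0.185) and with lists of equal length (7529.2 bp, exact p = 0.111), and in the more significant 50% of each list the difference was 0 bp. Without 1 list the count called lower lay between 14 (digit V metacarpals) and 67 (digit V foot phalanges), with 62 without digit I foot phalanges, 24 without digit I hand phalanges, 15 without digit V hand phalanges, 16 without digit I or III metacarpals, 17 without digit I or III metatarsals and 18 without digit V metatarsals. The count called higher was 8 without digit I or III foot phalanges, 9 without digit III hand phalanges and 10 without digit I or V hand phalanges.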

How the data were processed

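Open chromatin was measured by ATAC-seq in 36 libraries of 12 groups. The submitters' processing notes name the mm10 build, MACS3, Picard 2.9.0 and Bowtie2 2.3.4.1. Their roles, the read shift and the pooling thresholds are not given in the sources used here. The authors pooled the libraries of a group and deposited a single peak list for it. In these lists the deposited fold enrichment is a linear ratio per peak, the deposited −log10 p-value is per peak, and the deposited score column was not compared between lists. Read depth is unknown.

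Peaks wider than 10 kb (end minus start) were merged at 1 bp overlap into domains, in 12 lists grouped by the labels. The bases of each domain under any peak of a list were compared by two-sided exact permutation of the difference of means, within strata of the other factors (64 labellings for limb or element, 81 for a digit), with Benjamini-Hochberg adjustment over all 65551 features. No column belonged to another series. The test was checked on simulated data. Genes, promoters and miRNAs came from RefSeq tables on GRCm38.p6, whose promoters were at hand for 80.6% of overlapped genes. Python 3.11.15, numpy 2.4.6, pandas 2.3.3, scipy 1.17.1 and matplotlib 3.10.9 were used. Named domains were up to 12 of those broad in every list, the 10 with the widest peak, the 4 with the largest difference per contrast and direction, up to 4 per gene list, the peaks nearest to the threshold and genes with several domains; Sox9, Six2, Axin2, Lhx2, Runx3, Msx1, Jun, Pax9, Sox6, Tbx15, Klf2 and the H19 domain were added after their values were seen where that rule did not name them. The domains, 15 gene lists and tests were chosen with earlier results of these data known. The 5 contrasts share the same 12 lists. Some genes are not reported here.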

Additional observations from a re-analysis of the deposited data

Results flagged for a closer look

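Of 164 groups of 4 to 8 lists examined, 20 had 1 list far from the rest, measured by its gap to the next list over the whole range; chance gives about 1 in 20 groups. All values are bases under peaks unless stated. Foot phalanges of digit V stood high among hindlimb lists over Gsk3a and Erf (21204 bp, next 17143 bp) and Foxp4 (24652 bp, next 14753 bp), and among digit V lists over Plxnd1 (10239 bp, the others 0 bp). Metatarsals of digit I stood high among metapodials in the number of peaks wider than 10 kb (368, next 207), over Nfkb2 and Psd (10084 bp, next 6281 bp) and over Runx3 (10542 bp, next 5531 bp), and among digits I and V over Rrbp1 (12730 bp, the others 0 bp). Metacarpals of digit V stood low over Mcl1 among forelimb lists (11022 bp, next 18403 bp), over Foxp4 among metapodials (3847 bp, next 9134 bp) and over Msx1 among metapodials (7458 bp, next 11981 bp) and digit V lists (7458 bp, next 12713 bp), and high over Spry2 among digits I and V (16272 bp, next 10715 bp).

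Mid1 was high in metatarsals of digit III (52022 bp, next 51305 bp) and in metacarpals of digit III (51485 bp, next 51107 bp) within a narrow range. Adamts1 was low in hand phalanges of digit V among forelimb lists (10957 bp, next 14744 bp). Cdk9 was high in foot phalanges of digit III among digits III and V (7469 bp, next 5085 bp). The domain over Hoxd11, Hoxd10 and Hoxd9 was low in metacarpals of digit I among digits I and V (15134 bp, next 16964 bp). Among digits I and III, the domain over Mroh2a and Hjurp was high in hand phalanges of digit III (17533 bp, the others 0 bp), and foot phalanges of digit I were low over Emp1 (3881 bp, next 20785 bp) and Klf2 (4441 bp, next 9237 bp).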

How the results depend on the processing

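No paired analysis was possible because each list pools its libraries and carries no replicate number. The widest 0.5% of each list, a 1 kb merging gap, 50% overlap and autosomes alone left the counts of domains within 1.5 times. Counts of calls are given as higher, then lower. The share called over all features is given above only for the main counts, the share of covered bases and, for digits, equal length. At the other settings it is not at hand, so these counts cannot be set against all features. They also rise and fall with the number of domains. Above 8 kb there were 1550 domains, 72 of them broad in all lists; calls were 59 higher for limb, 118 and 18 for element, 68 higher for digit I, 64 higher for digit III and 27 and 73 for digit V. Above 12 kb there were 458 domains, with 18 higher for limb, 36 higher for element, 17 higher for digit I, 18 and 8 for digit III and 10 and 21 for digit V. Above 15 kb there were 204 domains, 15 broad in all lists, with 9 and 2 for limb, 8 and 4 for element, 6 and 13 for digit I, 8 and 5 for digit III and 4 and 8 for digit V. With the more significant 50% of each list, 20 domains were broad in all lists and calls were 4 lower for limb, 10 lower for digit I, 7 lower for digit III and 8 higher for digit V. With lists of equal length they were 26 lower for digit III and 30 higher for digit V. As a share of covered bases they were 13 and 20 for limb, 16 lower for element, 7 and 94 for digit III and 92 and 7 for digit V. For the widest peak in the domain they were 11 lower for digit I and 25 lower for digit V. With each domain only broad or not, they were 0 and 0 for limb, 0 and 0 for element, 2 and 0 for digit I, 2 and 0 for digit III and 2 and 5 for digit V. Without strata they were 43 higher for limb, 115 and 18 for element, 8 lower for digit III and 10 higher for digit V. At established symbols alone, an alternative chosen after seeing the data, 13 were broad in all lists, with 8 lower for digit I and 10 higher for digit V. Leaving out 1 list gave 707 to 806 domains, 31 to 40 broad in all, 9 to 58 and 4 to 22 for limb, 33 to 105 and 4 to 26 for element, 8 to 45 and 13 to 33 for digit I, 13 to 35 and 4 to 33 for digit III and 8 to 24 and 14 to 67 for digit V. As bases per covered Mb, Mid1 reversed in limb (-31.883, exact permutation p = 0.406) and digit III (-73.004, p = 0.16), and the H19 domain in digit V (7.0827, p = 0.383). By widest peak the Foxp4 limb difference was -190.33 bp (exact p = 0.906), and by broad or not the Zfp36 element difference was -0.16667 of lists (p = 1.0). The cause was not tested. Over single lists left out, named differences kept their call in 554 runs and lost it in 370. Kept, lost and reversed were 31, 46 and 0 in the more significant 50%, 60, 17 and 0 at equal length, 37, 37 and 3 as a share of covered bases, 37, 39 and 1 by widest peak, 4, 72 and 1 as broad or not and 54, 23 and 0 without strata. Unknown depth limits any statement that a stretch was closed.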
